A study of Mus musculus with 4 samples.

Results

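The 9 genes of the interferon response studied here were followed in mouse embryonic stem cells (ESCs) with and without the clock factor BMAL1: *Stat2*, *Irf1*, *Irf7*, *Irf9*, *Isg15*, *Bst2*, *Ifitm1*, *Ifitm3* and *Ifih1*. They were found by gene symbol, with symbols that the files join by a comma taken apart, and they account for 9 of the 19645 features in each library. Total RNA depleted of ribosomal RNA was sequenced from 2 WT and 2 *Bmal1* KO libraries, with no treatment named for either group. ESCs were grown on gelatin in serum with LIF, the cytokine that keeps them undifferentiated. The KO line was 1 clone picked after transfection with Cas9, a puromycin resistance gene and a guide RNA against *Bmal1* (symbol *Arntl*), so effects of the mutation and of clonal origin cannot be told apart. Values are FPKM, the authors' estimate of fragments per length of transcript and per mapped fragments in the library, so that levels can be compared between genes.

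Interferons are secreted when a cell senses foreign nucleic acid. Type I interferons bind the receptor of IFNAR1 and IFNAR2, whose kinases JAK1 and TYK2 phosphorylate STAT2; it joins IRF9 in the complex ISGF3, which binds the interferon-stimulated response element (ISRE) of antiviral genes. Type II interferon acts through the GAS element, *Irf1* being a classical target. ESCs are known to make and answer type I interferon poorly, and to express some antiviral genes, the *Ifitm* genes among them, without it.

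The promoters of the members differed in the elements that interferon signalling reads. They are shown because genes with the same element sat at opposite ends of the range of levels below. Windows of 300 bases around RefSeq start sites (GRCm38.p6, 250 before and 50 after) were searched on both strands for the ISRE core GAAANNGAAA, the GAS core TTCNNNGAA and the E-box CACGTG, which BMAL1 with CLOCK is known to bind. The ISRE core was in 3.44% of 32851 windows, the GAS core in 8.30% and the E-box in 7.15%. Per gene, an ISRE core was found for 5 of 9 members, a GAS core for 3 and an E-box for 0. Of 27025 genes, the shares were 3.99, 9.55 and 8.09%. These are matches of letters and not binding sites. Capitals mark the matches to the ISRE and GAS cores, which overlap in *Bst2* and in the downstream match of *Ifitm3*, and each stretch reads 5′ to 3′ on the strand of its gene.
Isg15 (chr4:156200849-156200918, minus strand, 3 overlapping ISRE cores): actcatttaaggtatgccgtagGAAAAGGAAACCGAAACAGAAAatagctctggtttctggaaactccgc
Bst2 (chr8:71537553-71537622, minus strand, GAS core and 2 ISRE cores): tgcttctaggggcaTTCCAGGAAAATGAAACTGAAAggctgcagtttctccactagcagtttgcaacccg
Ifitm3 (chr7:141010715-141010784, minus strand, 2 ISRE cores and 1 GAS core from base 3 of the transcript): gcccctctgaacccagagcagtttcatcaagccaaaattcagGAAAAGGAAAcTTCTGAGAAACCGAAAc
Irf1 (chr11:53769904-53769963, plus strand, GAS core): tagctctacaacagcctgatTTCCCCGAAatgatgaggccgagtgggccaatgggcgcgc
Stat2 (chr10:128270258-128270297, plus strand, ISRE core read on the other strand): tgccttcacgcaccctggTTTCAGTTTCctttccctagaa
*Ifih1* had an ISRE core at base 33 of the transcript, and *Irf7*, *Irf9* and *Ifitm1* had no match to any of the 3 motifs in their windows. The window of *Ifitm1* (chr7:140967826-140968125) lies downstream of the start of its feature (140967429). Both windows of *Irf9* (from 55603735 and from 55604329) lie downstream of its annotated start (55603571). The bases before those more upstream starts were not searched.

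The 9 members spanned the whole range of expression in ESCs. In WT, the order was *Ifitm3*, *Ifitm1*, *Bst2*, the feature that joins *Irf9* with *Rnf31*, *Stat2*, *Irf1*, *Isg15*, *Irf7* and *Ifih1*. The place of *Irf9* itself is not known, since its part of the joint feature cannot be told. The mean of *Ifitm3* was higher than that of 97.0% of features and that of *Bst2* higher than that of 90.8%, whereas *Irf1* was near the middle of the range at 54.7%. Silent here means under 0.1 FPKM in each of the 4 libraries. *Irf7* and *Ifih1* were silent by this measure, against 14.8% of all features. The WT libraries of *Ifitm3* were above those of *Ifitm1*, but the means were only 17.7 FPKM apart (1.11-fold), less than their SDs together (5.14 and 16.2). From *Ifitm1* down to *Isg15*, features next to each other in the order were separated in WT by more than their SDs together. The closest of these were *Stat2* over *Irf1* (1.28-fold). *Isg15*, *Irf7* and *Ifih1* overlapped at the bottom of the order. Among the 6 most abundant members the order in KO was the same except for 1 exchange, with *Irf1* 1.20-fold above *Stat2*. The ISRE core did not follow these levels: the promoters that hold it belong to *Ifitm3* and *Bst2* near the top, to *Stat2* in the middle and to *Isg15* and *Ifih1* at the bottom.

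**Figure D1:**
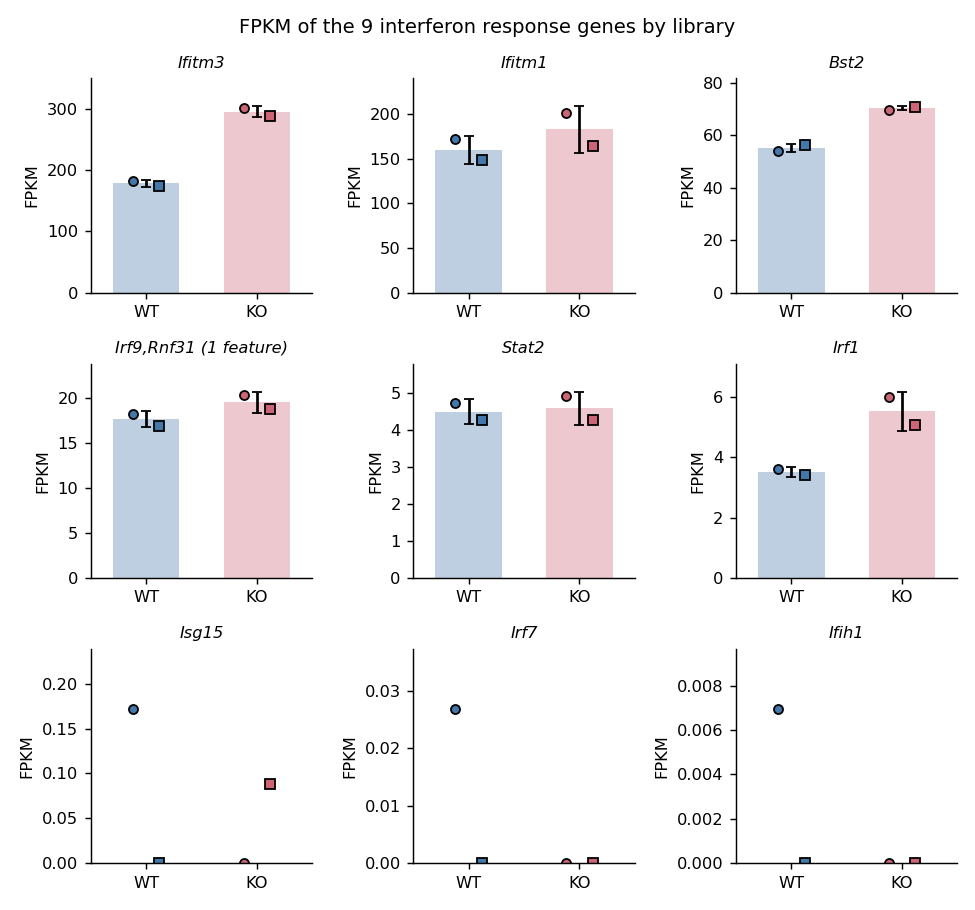
FPKM of each member in the 4 libraries, each panel with its own linear axis from 0. Circles are replicate 1 and squares replicate 2; bars and error bars give the mean and SD of 2 libraries and are left out for the 3 genes with libraries listed at 0. The KO libraries lie above the WT libraries for *Ifitm3*, *Bst2*, *Irf9* and *Irf1*, and *Isg15*, *Irf7* and *Ifih1* stay under 0.2 FPKM.

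KO was compared with WT in limma on log2(FPKM + 0.1), for 12990 features whose mean reached 0.5 FPKM. Of the 9 members, 6 could be tested, and *Isg15*, *Irf7* and *Ifih1* were below the minimum, as were 33.9% of all features. A gene is said to have risen or fallen at an adjusted p under 0.05 and to be called when it also changed by more than 2-fold. In the KO libraries 3 of the 6 tested members rose, *Ifitm3*, *Irf1* and *Bst2*, and 0 fell. Of all tested features, 6.85% rose and 5.60% fell. None of the members was called by limma (0 of 6, with 3 at an unadjusted p under 0.05), against 4.14% of tested features (2.72% called up and 1.42% called down). Both KO libraries were above both WT libraries for 4 of the 6, against 27.0% of tested features, and both were below for 0 of the 6, against 31.7%, so that the groups were apart for 4 members beside 58.8% of tested features. The median log2 difference was 0.27 for the members and -0.02 for all tested features. In bulk RNA, more RNA per cell and a larger share of cells with that RNA cannot be told apart. The p-values measure only the spread between these libraries, since the labels do not say whether they came from separate cultures.

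Among the transcription factors, *Irf1* rose, and *Stat2* and *Irf9* of ISGF3 did not pass the test. *Irf1*, which drives antiviral genes and is itself induced by interferon (chr11:53770001-53778374), had 3.63 and 3.40 FPKM in WT and 6.0 and 5.07 in KO. Both KO libraries were above both WT libraries, and the mean was 1.57-fold higher (log2 difference 0.64, SE 0.13, 95% interval 0.31 to 0.97, adjusted p = 0.0352). Without KO replicate 1, *Irf1* did not pass the threshold (adjusted p = 0.109). *Stat2*, the STAT that belongs to ISGF3 alone (chr10:128270523-128292849), had 4.74 and 4.27 FPKM in WT and 4.92 and 4.28 in KO. These libraries overlapped, and the difference of 0.03 had an interval of -0.30 to 0.35 (adjusted p = 0.912).

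*Irf9*, which gives ISGF3 its DNA binding, could be followed only as a feature joined with its neighbour *Rnf31*, a subunit of a ubiquitin ligase (chr14:55587440-55610077). The feature had 18.2 and 16.9 FPKM in WT and 20.3 and 18.7 in KO, which did not overlap but lay close together (difference 0.15, interval -0.08 to 0.37, adjusted p = 0.337). How much of it was *Irf9* cannot be told from these values. The feature of *Psme2*, a proteasome activator subunit, has the same coordinates. It rose, with 31.3 and 25.1 FPKM in WT and 42.1 and 38.7 in KO (adjusted p = 0.0484), but missed the threshold without WT replicate 2 (0.0821) or KO replicate 1 (0.0813). *Irf7*, the factor that amplifies the type I interferon response (chr7:141263183-141266424), had 0.0269 FPKM in WT replicate 1 and was listed at 0 in the other 3 libraries.

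*Ifih1*, which encodes MDA5, a cytoplasmic sensor of long double-stranded RNA (chr2:62595793-62646255), had 0.00697 FPKM in WT replicate 1 and was listed at 0 in the other 3 libraries. *Isg15*, a ubiquitin-like protein coupled to other proteins during the response (chr4:156199424-156200818), had 0.172 FPKM in WT replicate 1 and 0.0886 in KO replicate 2, and was listed at 0 in the other pair. Neither genotype had the higher libraries for *Isg15*. FPKM carry no read number, so no detection limit can be given for these 3 genes, and a value listed at 0 is not shown to be an absence of RNA.

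The membrane-bound effectors were the most abundant members and held 2 of the 3 rises. *Ifitm3*, which blocks the fusion of viruses with endosomal membranes (chr7:141009590-141010744), had 182 and 174 FPKM in WT and 301 and 288 in KO. The genotypes were far apart beside the spread within each, 178 ± 5.14 (SD, n = 2) against 295 ± 8.66 (SD, n = 2), a 1.65-fold difference (log2 0.73, SE 0.07, interval 0.55 to 0.90, adjusted p = 0.00554). *Bst2*, or tetherin, which holds budding virions at the cell surface (chr8:71534262-71537437), had 53.9 and 56.2 FPKM in WT and 69.9 and 70.9 in KO. These did not overlap either, with a smaller 1.28-fold difference (log2 0.35, SE 0.07, interval 0.18 to 0.53, adjusted p = 0.0314). Leaving out any 1 library took *Bst2* over the threshold (adjusted p between 0.0514 and 0.109). *Ifitm1*, a relative of *Ifitm3* that acts more at the cell surface (chr7:140967429-140969859), had 172 and 149 FPKM in WT and 201 and 165 in KO. Here KO replicate 2 was below WT replicate 1, and the difference of 0.19 had an interval of -0.12 to 0.49 (adjusted p = 0.369).

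**Figure D2:**
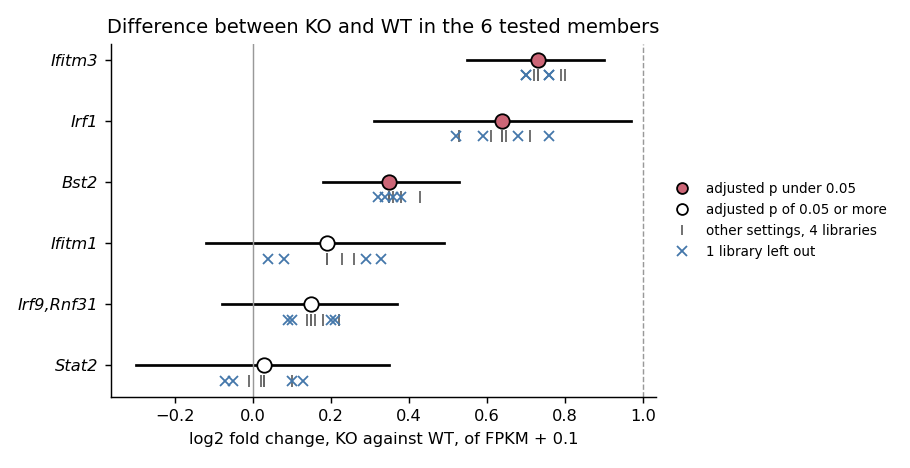
Log2 difference of KO minus WT for the 6 tested members, with points for the estimate (filled at an adjusted p under 0.05), bars for the 95% interval of limma, a solid line at 0 and a dashed line at a 2-fold rise; small marks give the estimates in the 10 other settings with all libraries and crosses those with 1 library left out. The intervals of *Ifitm3*, *Irf1* and *Bst2* lie above 0, and those of *Ifitm1*, *Irf9* with *Rnf31* and *Stat2* cross it.

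Ratios within a library do not depend on its scaling, and they describe how the members moved against each other. The ratio of *Ifitm3* to *Ifitm1* was 1.06 and 1.17 in WT and 1.49 and 1.75 in KO. The ratio of *Irf1* to *Stat2* was 0.766 and 0.795 in WT and 1.22 and 1.18 in KO, so that *Irf1* was below *Stat2* in each WT library and above it in each KO library. The ratio of *Ifitm1* to *Bst2* overlapped, at 3.19 and 2.65 in WT and 2.88 and 2.32 in KO. For such single values, 2 libraries against 2 can give no exact permutation p (two-sided) under 0.333, and the ratios of *Ifitm3* to *Ifitm1* and of *Irf1* to *Stat2* reach that limit. Summed over the 9 members, FPKM were 434 and 404 in WT and 603 and 552 in KO, a sum made up mostly of *Ifitm3* and *Ifitm1*.

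*Ifitm1*, *Ifitm2* and *Ifitm3* lie close together on chromosome 7, and of their features that of *Ifitm3* rose and the others did not pass the test. *Ifitm2* shares a feature with *Ifitm5* and was the most abundant of them, with 839 and 844 FPKM in WT and 801 and 810 in KO. Its difference of -0.06 (adjusted p = 0.610) was positive with quantile normalization (0.08) and after rescaling to features with a symbol (0.01), and the direction of *Ifitm1* and *Ifitm3* was the same in each scaling tried. The ratio of *Ifitm2* to *Ifitm3* was 4.62 and 4.84 in WT and 2.67 and 2.81 in KO. Of 7 tested neighbours of *Ifitm3* within 100 kb, 0 rose and 0 fell in limma, and their median difference was -0.06. The surroundings of *Bst2* looked otherwise: 4 of its 12 tested neighbours rose and 0 fell, with a median of 0.30. Of all tested features, 6.85% rose and 5.60% fell. Those 4, named after their values were seen, were *Plvap* (1.02), *Ano8* (0.97), *Abhd8* (0.74) and *Mvb12a* (0.54), each with a larger log2 difference than *Bst2* itself. Of the 12 tested neighbours of *Stat2* 0 rose and 1 fell, and of the 14 of *Irf9* 2 rose and 2 fell. *Irf1* had 2 tested neighbours, with a median of -0.31, and neither passed the test.

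**Figure D3:**
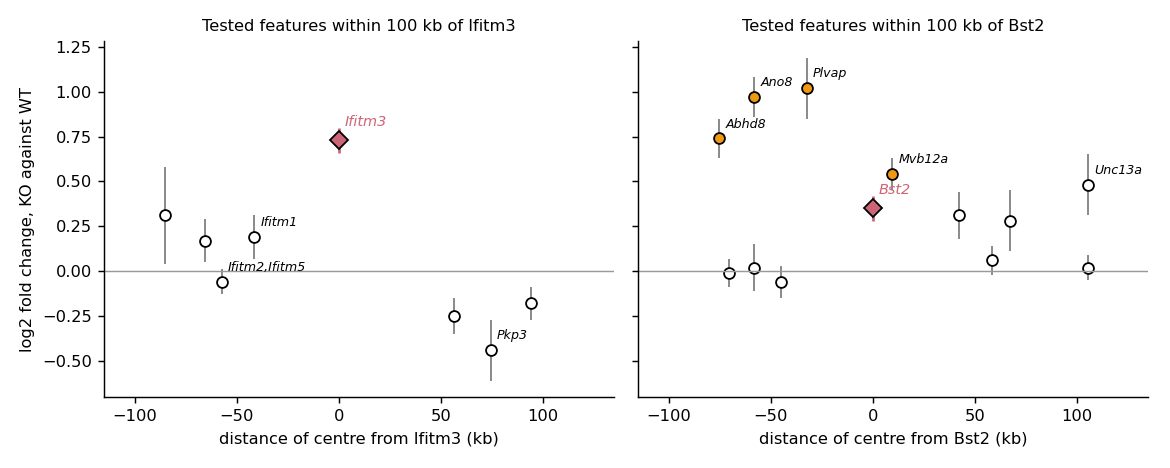
Log2 difference of KO minus WT, with its SE, for each tested feature within 100 kb of *Ifitm3* (left) and *Bst2* (right), against the distance of its centre in kb, with the member as a diamond at 0. Filled circles passed an adjusted p under 0.05; around *Ifitm3* none of the 7 neighbours did, and around *Bst2* 4 of 12 did, all upwards.

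The other genes of the pathway were taken from 8 lists ordered by role, 157 symbols in all, of which 124 had a row. Among the 72 features tested, 5 were called and all 5 were higher in KO, which is 6.94% against 4.14% of all tested features and 2.72% in that direction, and 8 rose and 4 fell at any size. Leaving out the list of MHC class I presentation, 3 of 65 were called (4.62%). The median difference over the 72 was 0.08.

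At the top of the chain, 1 of 21 listed interferon genes had a row: *Ifng*, type II interferon, had 0.0838 FPKM in WT replicate 1 and 0.0477 in KO replicate 2 and was listed at 0 in the other pair. *Ifnb1*, interferon beta, is among the 20 symbols without a row and was not analysed here. Receptors and kinases were expressed in both genotypes, and of 8 tested 0 rose and 0 fell in limma, with 0 at an unadjusted p under 0.05. *Ifnar1* had 4.86 and 5.03 FPKM in WT and 4.68 and 4.97 in KO (difference -0.04, adjusted p = 0.858). *Ifnar2* had 7.97 and 8.77 FPKM in WT and 8.73 and 9.20 in KO (0.10, adjusted p = 0.564). The kinases of this receptor missed the threshold, with differences of -0.20 for *Jak1* (adjusted p = 0.236) and -0.11 for *Tyk2* (adjusted p = 0.646), and so did *Jak2*, which serves the type II receptor (0.24, adjusted p = 0.618). *Stat3*, which carries the LIF signal in ESCs, had 28.4 and 27.5 FPKM in WT and 27.1 in both KO libraries. *Irf3*, the factor downstream of the sensors, had 18.0 and 15.2 FPKM in WT and 18.1 and 16.4 in KO, and these overlapped. Its feature overlaps *Bcl2l12*.

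A pair of genes was called among 13 tested nucleic acid sensors and adaptors, 15.4% of them against 4.14% of all tested features, beside the silent *Ifih1*. *Aim2*, a sensor of cytoplasmic DNA that assembles an inflammasome, had 1.21 and 1.55 FPKM in WT and 8.97 and 10.9 in KO. This was the largest difference of the tested pathway genes outside MHC class I presentation (log2 2.77, SE 0.17, adjusted p = 0.00181), and *Aim2* was called in each of the 14 other settings tried. *Tmem173*, which encodes STING, had 0.628 and 0.539 FPKM in WT and 1.77 and 1.45 in KO (1.32, SE 0.23, adjusted p = 0.0213). Its call was lost without KO replicate 1. *Ddx58*, which encodes RIG-I, an RNA sensor of the family of MDA5, was expressed in both genotypes, with 9.92 and 10.0 FPKM in WT and 9.80 and 11.2 in KO (0.07, adjusted p = 0.678). The most abundant genes of this list did not pass the test: *Trim25*, a ligase that activates RIG-I, had 38.8 and 37.1 FPKM in WT and 37.4 and 36.3 in KO. *Mavs*, the mitochondrial adaptor of both RNA sensors, whose feature spans other genes, had 11.9 and 10.1 FPKM in WT and 12.9 and 10.6 in KO, and *Tbk1*, the kinase of IRF3, had 17.8 and 20.6 in WT and 17.4 and 18.7 in KO.

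Of 28 tested antiviral effectors, 4 rose and 2 fell, and 1 was called (3.57%, against 4.14% of all tested features). A further 31 were below the minimum, 14 of them silent. *Oas1g*, of the family whose products activate RNase L, had 1.35 and 1.76 FPKM in WT and 3.41 and 3.19 in KO (1.05, SE 0.18, adjusted p = 0.0201), and it belongs to a multigene family whose reads the counting could split, so that its level is uncertain. *Oas1a* beside it did not pass the test (0.41, adjusted p = 0.128). The call of *Oas1g* was lost without WT replicate 1. The other 3 that rose, named after their values were seen, were *Xaf1* (0.65), *Ifi30* (0.40) and *Pml* (0.37), a proapoptotic factor, a lysosomal reductase and the scaffold of nuclear bodies. *Pml* missed the threshold with any 1 library left out (adjusted p between 0.0502 and 0.139), *Ifi30* without WT replicate 2 (0.0542) or KO replicate 1 (0.0969), and *Xaf1* without KO replicate 1 (0.0707). The 2 that fell were *Samhd1*, which depletes nucleotides (log2 -0.59, adjusted p = 0.0119), and *Lgals9*, a lectin (-0.92, adjusted p = 0.00586), given for 1 of its pair of overlapping features. *Mov10* and *Daxx*, abundant in ESCs, did not pass the test. *Mov10* had 60.6 and 52.7 FPKM in WT and 64.5 and 60.7 in KO, just above WT (0.15, adjusted p = 0.353), and its feature overlaps *Rhoc*. *Daxx* had 44.2 and 38.8 FPKM in WT and 40.5 and 39.1 in KO, which overlapped.

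Of the 4 genes that couple ISG15 to proteins or remove it, *Uba7*, *Herc6* and *Usp18* were silent, the last being the protease that removes it. *Ube2l6*, the conjugating enzyme, was above them, with 0.691 and 0.847 FPKM in WT and 0.554 and 0.622 in KO (-0.33, adjusted p = 0.449). Among 11 tested negative regulators 0 rose and 1 fell. That gene, *Trim28*, a corepressor that silences retroelements, had 941 and 923 FPKM in WT and 724 and 718 in KO (-0.37, adjusted p = 0.0306). It missed the threshold with any 1 library left out (adjusted p between 0.0632 and 0.0931) and with quantile normalization (-0.25, adjusted p = 0.146). The next most abundant, *Pias2* and *Pias4*, ligases for the modifier SUMO, did not pass the test. *Pias2* had 49.1 and 56.6 FPKM in WT and 46.8 and 51.7 in KO, and *Pias4*, with both KO libraries above WT, had a difference of 0.14 (adjusted p = 0.350). MHC class I presentation held 2 of the 5 calls among 7 tested genes, 28.6% against 4.14% of all tested features. *B2m*, the light chain, whose feature overlaps *Patl2* and *Trim69*, had 5.32 and 4.09 FPKM in WT and 37.0 and 39.5 in KO (3.01, adjusted p = 0.00119). The feature of *Patl2*, named after its values were seen, has the same coordinates. It rose by more, from 1.28 and 0.875 FPKM in WT to 16.7 and 15.7 in KO (3.81, adjusted p = 0.00126). *H2-D1*, joined with *H2-L*, had 2.49 and 2.46 in WT and 5.58 and 5.84 in KO (1.17, adjusted p = 0.00558). *Psmb10*, an immunoproteasome subunit joined with *Ctrl*, went the other way (-0.63, adjusted p = 0.0305). *Tapbp*, which helps to load peptides and is joined with *Rgl2* and *Zbtb22*, had overlapping libraries, 31.0 and 25.1 FPKM in WT and 34.9 and 28.3 in KO.

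**Figure D4:**
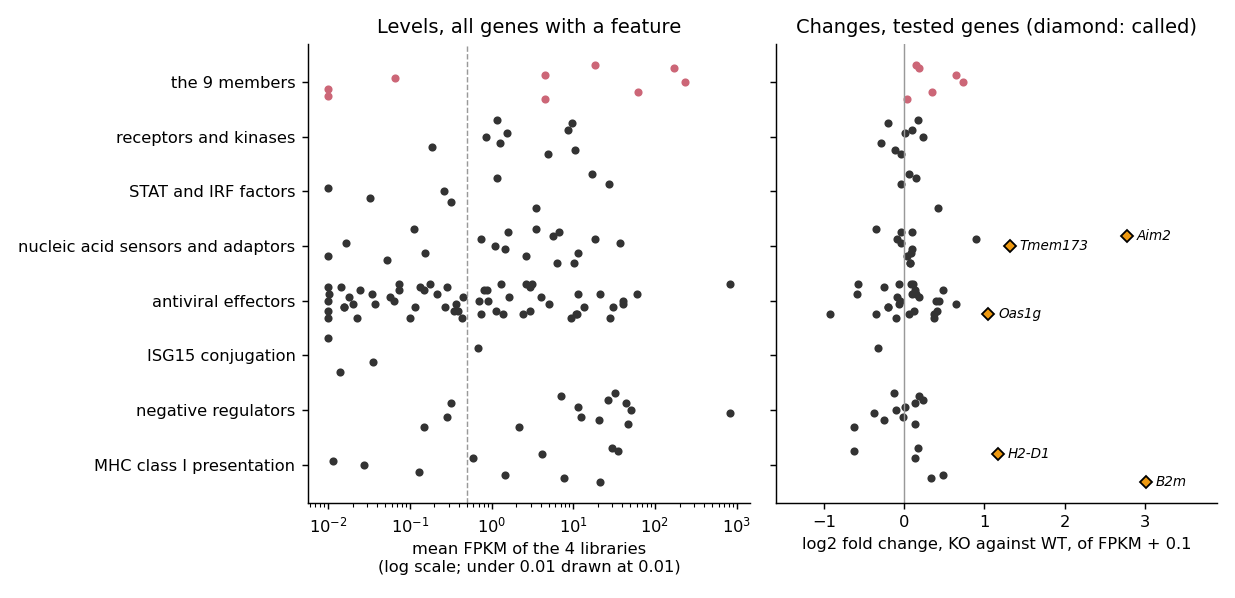
Mean FPKM over the 4 libraries (left, log scale, values under 0.01 drawn at 0.01) and log2 difference of KO minus WT (right, tested features only) for the members and the genes of the lists, by role, without the ligands. The dashed line is the minimum of 0.5 FPKM and diamonds are called genes; *Aim2* at 2.77 and *B2m* at 3.01 lie farthest from 0, and receptors and kinases stay near 0.

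Several facts of the libraries stand beside these values, and their part in the differences was not tested. *Arntl* had 6.05 and 6.29 FPKM in WT and 5.95 and 5.92 in KO, so its total level does not check the genotype. The Y-linked gene *Ddx3y* had 0.235 and 0.403 FPKM in WT and 16.4 and 20.6 in KO, and line and genotype cannot be told apart. Features without a symbol took 26.8 and 37.3% of summed FPKM in WT and 19 and 18.1% in KO. The 10 ESC markers summed to between 6025 and 6542 FPKM in all 4 libraries, with 0 of them silent. Most of the sum was *Dppa5a* and *Pou5f1*, which did not pass the test (adjusted p = 0.999 and 0.799). Of the 10 differences, 7 were below 0, among them that of *Dppa5a* (-0.00), and 3 were above. In limma 2 markers rose, *Tfcp2l1* (0.39) and *Fgf4* (0.30), and 2 fell, *Klf4* (-0.46) and *Tdgf1* (-0.36). Of 10 fibroblast markers 8 had a row and 4 were silent, and their sum was 2.55 and 2.22 FPKM in WT and 4.03 and 3.45 in KO. Most of it was *Thy1*, with 1.69 and 1.54 FPKM in WT and 2.73 and 2.11 in KO. It was the only 1 tested and did not pass in limma (adjusted p = 0.120). *Fbn1*, *Pdgfrb* and the silent *Pdgfra* were also higher in each KO library. *Col1a1*, between 0.105 and 0.217, overlapped, as did the silent *Col1a2*, *Col3a1* and *Dcn*. The 6 macrophage and leukocyte markers with a feature of their own summed to between 0.344 and 0.938, and *Ptprc* was at most 0.0344. The 7 endothelial markers with a row summed to between 37.2 and 38.4, mostly *Pecam1* and *Egfl7*. Of 4 tested, *Tek* (0.85, adjusted p = 0.0335) and *Esam* (0.97, adjusted p = 0.0160) rose and 0 fell. The shares of all tested features were 6.85 and 5.60%. *Pecam1* (-0.02, adjusted p = 0.893) and *Egfl7* (-0.19, adjusted p = 0.192) did not pass the test, and *Egfl7* was lower in each KO library. Among these markers *Fgf4* missed the threshold with any 1 library left out (adjusted p between 0.115 and 0.197), and so did *Tfcp2l1* (0.0629 to 0.0829) and *Tdgf1* (0.0825 to 0.123) without WT replicate 2 or either KO library, and *Tek* (0.0908 and 0.0940) without either KO library.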

How the data were processed

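RNA of 2 WT and 2 *Bmal1* KO ESC libraries was extracted with TRIzol and depleted of ribosomal RNA. The authors aligned reads to GRCm38 (the submitters' notes name TopHat2 2.1.1, Bowtie2 2.3.0 and Cufflinks 2.2.1), and deposited FPKM per feature. Low FPKM did not yield whole reads, which leaves library depth unknown, and precision was judged from replicates. Starts count from 0 in the files, and 1 was added.

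log2(FPKM + 0.1) was fitted in limma 3.58.1 (R 4.3.3), KO minus WT, with a variance trend and Benjamini-Hochberg adjustment over 12990 features with a mean of at least 0.5 FPKM. Fold changes of low genes are understated on this scale. Each adjusted p comes from this test. The script was tested on simulated data. Symbols, promoters and coordinates were joined in Python 3.11.15; promoter sequences came from RefSeq (GRCm38.p6), with 126 of the 157 pathway symbols matched, of which 34.1% had an ISRE core.

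The members, lists and tests were chosen with earlier results of these data known. Named were all members, genes needed to follow the signalling chain, features overlapping a member, and, in each list, the called genes and the 3 most abundant tested genes. Samples were grouped by their labels. Alternatives were another pseudocount, filter, scaling, variance model or summing by symbol, the replicate number as a block, and leaving out each library. The result for 1 gene of the pathway is not reported here.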

Additional observations from a re-analysis of the deposited data

How the results depend on the processing

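Across 14 other settings, 0 members were called in any. *Ifitm3* kept an adjusted p under 0.05 in limma in all of them, *Irf1* lost it with no filter (0.0791), without a trend (0.0566) and without KO replicate 1 (0.109), and *Bst2* without a trend (0.0884) and with each library left out. The difference of *Stat2* turned to -0.01 with quantile normalization and ranged from -0.07 to 0.13 with 1 library left out; the cause was not tested. The called pathway genes went from 5 to 2 with a pseudocount of 1 and to 3 with no filter, and were 4 to 5 with 1 library left out. *Tmem173* and *Oas1g* were lost under both of the former. Of all features, 538 were called (353 higher), 231 with a pseudocount of 1, which shrinks low values, and 605 to 820 with 1 library left out. After rescaling to features with a symbol, 1077 features rose and 517 fell, against 890 and 728. Equal replicate numbers are not stated to mark a shared batch, and deviations of same-numbered libraries correlated by 0.071 over features. Ratios between libraries were also taken for features above 0 and under 0.1 FPKM in both. Of these, 14.4% (replicates 1 of WT and KO) and 19.6% (replicates 2) lay within 0.02 log2 of the commonest ratio. In pairs without a shared number or genotype, and in pairs of 1 genotype, this was 3.35 to 3.75%. Whether same-numbered libraries share a batch was not tested. With the replicate block, 1807 features rose and 2245 fell, against 890 and 728 without it, and 632 were called. Pathway calls stayed at 5 and members called at 0, and *Ifitm1* passed the threshold of limma (adjusted p = 0.0275). Unknown depth limits the 3 members near 0.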

Other observations

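*Irgm1* and *Irgm2*, interferon-inducible GTPases that act on vacuoles of intracellular pathogens, were below the minimum of 0.5 FPKM and were therefore left out of the comparison. *Irgm1* had 0.124 and 0.128 FPKM in WT and 0.439 and 0.379 in KO, and *Irgm2* had 0.0880 and 0.0527 in WT and 0.282 and 0.290 in KO. Both genes had higher values in each KO library, as did 27.0% of the tested features. With no filter on low values neither passed the threshold of limma (adjusted p = 0.0649 for each). *Dhx58*, which encodes LGP2, the third RNA sensor of the family of MDA5, was tested and missed the threshold as well, with 0.479 and 0.487 FPKM in WT and 1.17 and 0.838 in KO (log2 difference 0.90, SE 0.27, adjusted p = 0.0903). The genes of this paragraph were chosen after their values were seen. The GTPase gene *Igtp* was also higher in each KO library, with 0.109 and 0.129 FPKM in WT and 0.210 and 0.425 in KO. Others were lower in each KO library. *Gbp4* had 0.268 and 0.402 FPKM in WT and 0.220 and 0.249 in KO. *Ifi47*, joined with *Olfr56*, had 0.0261 and 0.0547 in WT and was listed at 0 in KO. *Gbp9*, which was tested, had overlapping libraries (0.37, adjusted p = 0.485).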
